A study of Mus musculus with 18 samples.

Results

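A set of 8 protein-coding mRNAs of C2C12 myoblasts, Crtc2, Usp50, Hoxc8, Cep44, Cbx3, Mpst, Sap18b and Lpcat4, was followed across all 6 groups of a trypsin experiment. They were chosen by their measured increases over control, among the largest in the groups with the shortest time in trypsin or the least of it, so their differences from control in those groups are given as a description, with no test. They are 8 of the 25957 genes with deposited counts, and all 8 were among the 10075 genes that passed the filter on low counts. C2C12 is an established mouse myoblast line, and RNA was measured by BRB-seq, a bulk method that barcodes each sample before pooling and counts mRNAs mainly from the ends next to the poly(A) tail. The 18 libraries formed 6 groups of 3, numbered as lots 1 to 3 in the labels. The sources used here do not say what a lot is. The p-values therefore cover only the differences among these samples, which may be technical.

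All cells grew in medium with 20% fetal bovine serum. Control cells were lysed on the plate and scraped. The cells of every other group were first washed with PBS. In 3 groups 200 µL of 0.25% trypsin then stayed on the cells at 37 °C, for times of 30 s, 3 min and 30 min. The low trypsin group received the same solution, which was removed immediately, and then 3 min at 37 °C with whatever trypsin remained. The last group was shaken at 4 °C for 5 min in 200 µL of a cold-active protease, an enzyme that keeps working at low temperature. The treated groups therefore differed from control in wash, incubation and harvest as well as in the enzyme, and these cannot be told apart. The 30 s and low trypsin groups are called the mild groups below. The first had trypsin for a shorter time and the second had less of it, for the same 3 min as the 3 min group.

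Trypsin cleaves proteins after lysine and arginine and is the usual agent for lifting adherent cells from plastic, because it cuts the adhesion proteins that hold them. The 8 genes have unrelated known roles. Crtc2 encodes a coactivator that is kept in the cytoplasm by phosphorylation and enters the nucleus to act with CREB, the cAMP-responsive transcription factor. Cbx3 encodes HP1 gamma, a chromatin protein that reads methylated histone H3, and Hoxc8 a homeodomain transcription factor that gives positional identity along the body axis. Sap18b is a copy of Sap18, whose protein belongs to a histone deacetylase complex and to a complex bound to spliced mRNA. Usp50 is a member of the ubiquitin-specific protease family, and Cep44 encodes a protein of the centriole. Mpst and Lpcat4 are metabolic, a sulfurtransferase that forms hydrogen sulfide from the cysteine pathway and an acyltransferase that adds a fatty acid to lysophospholipids.

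Along its whole length Sap18b is nearly identical to part of the longer Sap18 transcript (5125 nt), which bears on the values of Sap18b. Its only exon, chr8:95825346-95826134 on the plus strand of GRCm38, gives a transcript of 789 nt, and 780 of these nt matched Sap18, on chromosome 14, without a mismatch. The coding sequences, 516 nt each, had 0 mismatches in GENCODE M21. In the last 500 nt of the Sap18b transcript, 100% of all stretches of 45 nt, the length of the sequenced read, also occurred in another gene. Only 5.68% of tested genes had more than 50% of such stretches shared. Cbx3 shared 1.97% of its stretches and the other 6 genes none.

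For 5 of the 8 genes (Usp50, Cep44, Cbx3, Mpst and Lpcat4) the RefSeq table, build GRCm38.p6, held promoter windows from 250 bases before to 50 after a transcript start, 8 windows in all. They were searched on both strands for TGACGTCA, the cAMP response element, for its shorter form TGACG, which lies within the longer one, and for TATAAA, the TATA box. None of the 8 windows held any of them, against 1.79%, 20.8% and 13.6% of all 32851 promoters. These letters are not in these windows, and nothing follows from that about the factors. Only the Usp50 window lay ahead of every exon annotated for its gene, over 240 bases. Those bases, chr2:126783471-126783710 on the minus strand, are shown because Usp50 had the largest increase of the 8 genes in low trypsin, and capitals would mark a match.
Usp50: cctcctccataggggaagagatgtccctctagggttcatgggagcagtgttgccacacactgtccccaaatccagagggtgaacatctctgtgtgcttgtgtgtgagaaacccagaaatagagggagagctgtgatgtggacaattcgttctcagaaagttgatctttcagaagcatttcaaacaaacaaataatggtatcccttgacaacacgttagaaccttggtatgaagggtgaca
This stretch had a GC content of 46.2%. The whole Usp50 window had 47%, and the median of all whole promoter windows was 52.7%.

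Library totals lay between 1490869 and 2480690 counts, so that 3 counts, the floor used here, corresponded to 1.24 to 2.01 CPM (counts scaled to a fixed library total). CPM values below are scaled by the trimmed mean of M values (TMM), and each mean carries the SD of 3 libraries. As in any bulk measurement, a lower level can be fewer cells that express a gene or less RNA in each cell, and these cannot be told apart. All 8 myoblast markers examined were present, at a summed 11122 to 12323 CPM per library. Most of this sum was Vim, at 9473 to 10872 CPM, while Myod1 and Myf5 had medians of 59.1 and 94.8 CPM. Markers of differentiating muscle were also present, 4 of 5 with a median over 3 CPM, at a summed 48.6 to 85.0 CPM, and Myog, a factor of early differentiation, had a median of 28.0 CPM. The summed markers stayed at or below 7.10 CPM for immune, 1.54 for endothelial and 4.33 for epithelial cells. The 8 mRNAs were scarce to moderately abundant. Their means over the 18 libraries ran from 5.46 CPM for Lpcat4 to 34.5 for Cbx3, with a median of 37.1 over all tested genes, and lay at the 5.84th to 47.8th percentile. These means include the libraries that chose the genes.

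**Figure D1:**
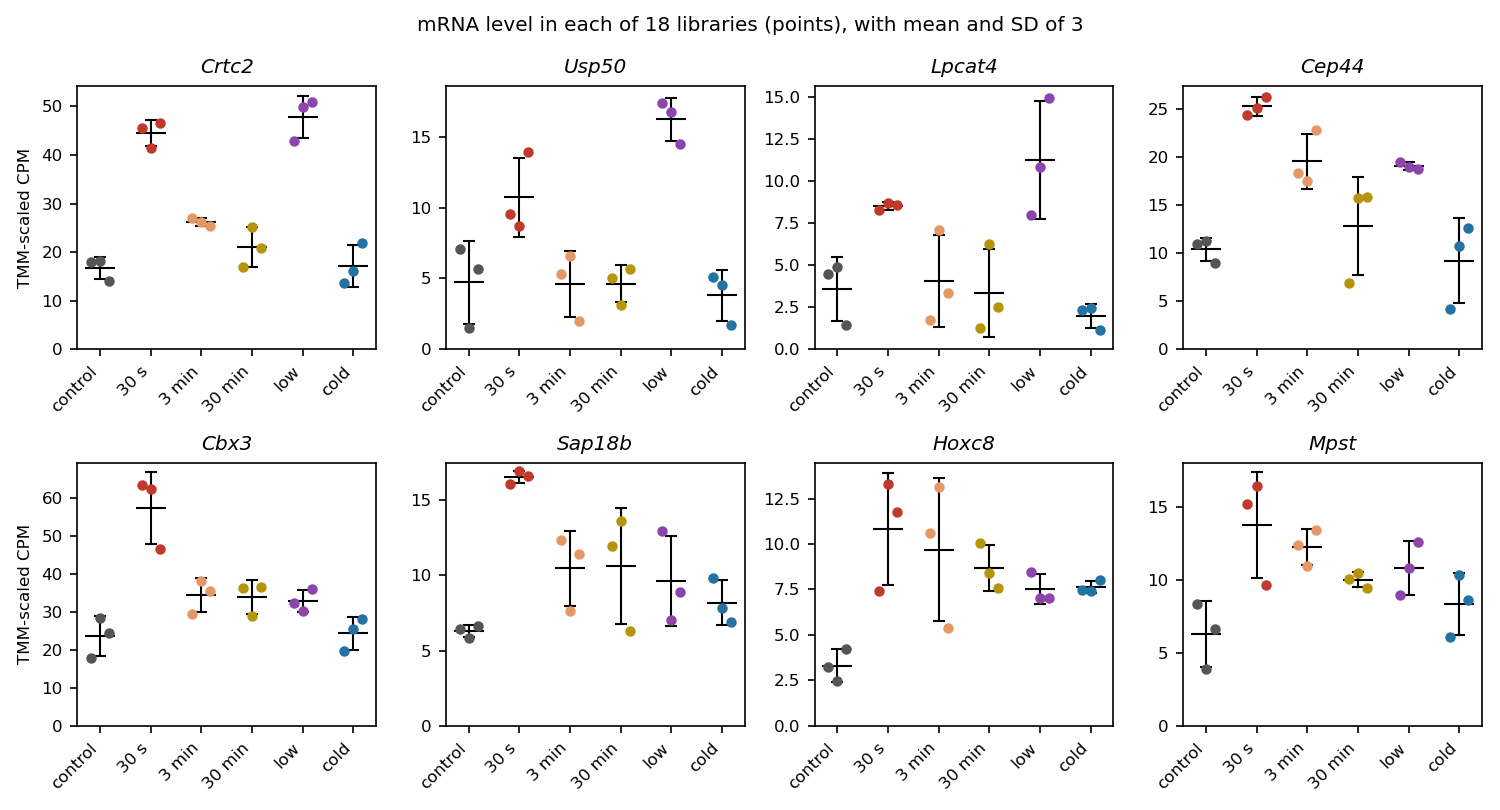
TMM-scaled CPM (vertical axes, each with its own scale from 0) of the 8 mRNAs in the 18 libraries, by group along the horizontal axes. Points are libraries, and black bars give the mean and SD of 3. Crtc2, Usp50 and Lpcat4 are high in the 30 s and low groups, Cep44, Cbx3 and Sap18b are highest at 30 s, and Hoxc8 is low in control, where its highest library has 4.24 CPM.

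Crtc2, Usp50 and Lpcat4 had their 6 highest libraries in the mild groups. For each of them, every 30 s and low trypsin library lay above all other 12 libraries. This pattern was found in 68 of the 10075 tested genes (0.675%), and since the mild groups chose the genes, no test is attached to it.

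Crtc2 (ENSMUSG00000027936, chr3:90254163-90264125, plus strand) had 17.97, 18.1 and 14.1 CPM in the 3 control libraries. After 30 s the libraries had 45.6, 41.5 and 46.6 CPM, and in low trypsin 42.8, 49.8 and 50.9. After 3 min they had 27.1, 26.2 and 25.5, after 30 min 17.0, 25.2 and 20.8, and with the cold-active protease 13.5, 16.1 and 21.8. The mild groups thus stood apart at the top and overlapped each other, 3 min came next, and the 30 min, cold and control libraries overlapped at the bottom. On the log2 scale Crtc2 was 1.42 ± 0.18 (SE) above control at 30 s, a 2.68-fold difference, and 1.52 ± 0.18 in low trypsin. It was 0.66 ± 0.20 above control at 3 min, 0.35 ± 0.21 at 30 min and 0.02 ± 0.21 with the cold-active protease.

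Usp50 (ENSMUSG00000027364, chr2:126709096-126783470, minus strand) was at 7.06, 1.47 and 5.66 CPM in control, the second of these from 3 counts. The 30 s libraries had 9.56, 8.71 and 13.9 CPM and the low trypsin libraries 17.4, 16.8 and 14.5. Here low trypsin had the higher values of the mild groups, with a difference of 0.60 ± 0.30 from 30 s on the log2 scale. Ordered by this difference, Usp50 held place 229 of 10075 tested genes. Both groups chose the gene, so the difference was not tested. Elsewhere the libraries had 5.30, 6.56 and 2.01 CPM at 3 min, 5.03, 3.14 and 5.67 at 30 min, and 5.14, 4.53 and 1.72 with the cold-active protease. These 3 groups and control overlapped throughout. Against control the log2 difference was 1.21 ± 0.39 at 30 s and 1.81 ± 0.36 in low trypsin. It was 0.06 ± 0.47 at 3 min, -0.01 ± 0.48 at 30 min and -0.21 ± 0.46 in the cold. The span of Usp50 overlaps that of Usp8 on the opposite strand, but the genes share 0 exonic nt.

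Lpcat4 (ENSMUSG00000027134, chr2:112239468-112247111, plus strand) was the scarcest of the 8, and 4 of its 18 libraries had 3 counts or fewer. Control libraries had 4.49, 4.88 and 1.41 CPM, 30 s libraries 8.25, 8.71 and 8.57, and low trypsin libraries 7.97, 10.8 and 15.0. The values were 1.77, 7.10 and 3.35 CPM at 3 min, 1.26, 6.29 and 2.52 at 30 min, and 2.33, 2.47 and 1.15 with the cold-active protease. The mild groups overlapped each other, and so did the other 4 groups. The log2 difference from control was 1.26 ± 0.44 at 30 s and 1.67 ± 0.42 in low trypsin, against 0.25 ± 0.53 at 3 min and 0.01 ± 0.52 at 30 min. With the cold-active protease it was -0.75 ± 0.58, the lowest of the 8 genes.

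Cep44, Cbx3 and Sap18b had their 3 highest libraries at 30 s, above all other 15. Of the tested genes, 58 (0.576%) had this pattern. The low trypsin libraries are among those 15 and so lay below every 30 s library by the same pattern. As the 30 s group chose the genes, no test is attached to it.

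Cep44 (ENSMUSG00000038215, chr8:56531522-56551047, minus strand) had 10.9, 11.2 and 8.96 CPM in control, 24.3, 25.1 and 26.2 at 30 s, and 19.4, 19.0 and 18.7 in low trypsin. At 3 min the libraries had 18.3, 17.5 and 22.8 CPM, at 30 min 6.91, 15.7 and 15.8, and with the cold-active protease 4.20, 10.7 and 12.6. The order of the means was 30 s, 3 min, low trypsin, 30 min, control and cold. Neighbours in this order overlapped except 30 s and 3 min, and low trypsin and 30 min. The first 30 min library and the first cold library stood well below the other 2 of their groups. On the log2 scale Cep44 was above control by 1.28 ± 0.25 at 30 s, 0.90 ± 0.27 at 3 min, 0.88 ± 0.27 in low trypsin and 0.33 ± 0.30 at 30 min. The cold-active protease gave -0.19 ± 0.30.

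Cbx3 (ENSMUSG00000029836, chr6:51470360-51483704, plus strand) was the most abundant of the 8. Its control libraries had 17.97, 28.3 and 24.5 CPM, those at 30 s 63.4, 62.5 and 46.6, and those in low trypsin 32.4, 30.3 and 36.0. The remaining values were 29.4, 38.3 and 35.5 CPM at 3 min, 36.5, 28.8 and 36.6 at 30 min, and 19.6, 25.5 and 28.1 in the cold. The 3 min, 30 min and low trypsin libraries overlapped in a middle band, above every control library. Cold and control overlapped below it. The log2 difference from control was 1.27 ± 0.17 at 30 s and close to 0.5 in that band: 0.52 ± 0.19 at 3 min, 0.49 ± 0.19 at 30 min and 0.46 ± 0.18 in low trypsin. From 30 s to low trypsin the difference was -0.81 ± 0.15. Flacc1, which holds a stretch near-identical to Cbx3, had 40 counts in all, and with it added the difference at 30 s was 1.22 ± 0.16. Other copies, such as Cbx3-ps6 (99.8% identity over 552 nt) and Gm49164 (99.8% over 608 nt), are absent from the counts. How reads that match them were assigned is not given.

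Sap18b (ENSMUSG00000061104) had 6.42, 5.86 and 6.60 CPM in control and 16.1, 16.9 and 16.6 at 30 s. The low trypsin libraries had 13.0, 7.04 and 8.88 CPM, the 3 min libraries 12.4, 7.65 and 11.4, the 30 min libraries 11.9, 13.6 and 6.30, and the cold libraries 9.80, 7.82 and 6.89. The 30 s libraries lay above all others. The 3 min, 30 min, low trypsin and cold libraries overlapped one another, and of these the 30 min group also overlapped control, through the third of its libraries (6.30 CPM). The log2 difference from control was 1.38 ± 0.30 at 30 s and lay between 0.38 ± 0.34 in the cold and 0.77 ± 0.33 at 30 min in the other groups.

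Because nearly all of the Sap18b transcript matches part of Sap18, the counts of Sap18b were set beside those of Sap18. Sap18 had 39.8, 50.8 and 47.6 CPM in control and 34.3, 42.0 and 35.9 at 30 s, a difference of -0.32 ± 0.14 that was not called (edgeR adjusted p = 0.238). Summed, the pair had 52.4 ± 5.5 CPM in control and 53.9 ± 4.4 at 30 s, and the difference was 0.03 ± 0.13 on the log2 scale. The sums of the other groups lay between 51.1 ± 6.2 CPM at 3 min and 54.3 ± 7.3 in low trypsin. What differed was the share of the summed counts assigned to Sap18b. This share was 13.9%, 10.3% and 12.2% in control and 31.9%, 28.7% and 31.6% at 30 s. It averaged 20.4% at 3 min, 20.2% at 30 min, 17.5% in low trypsin and 15.4% in the cold. The sources used here do not say how reads that match both genes were assigned, so the level of Sap18b alone is uncertain.

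**Figure D2:**
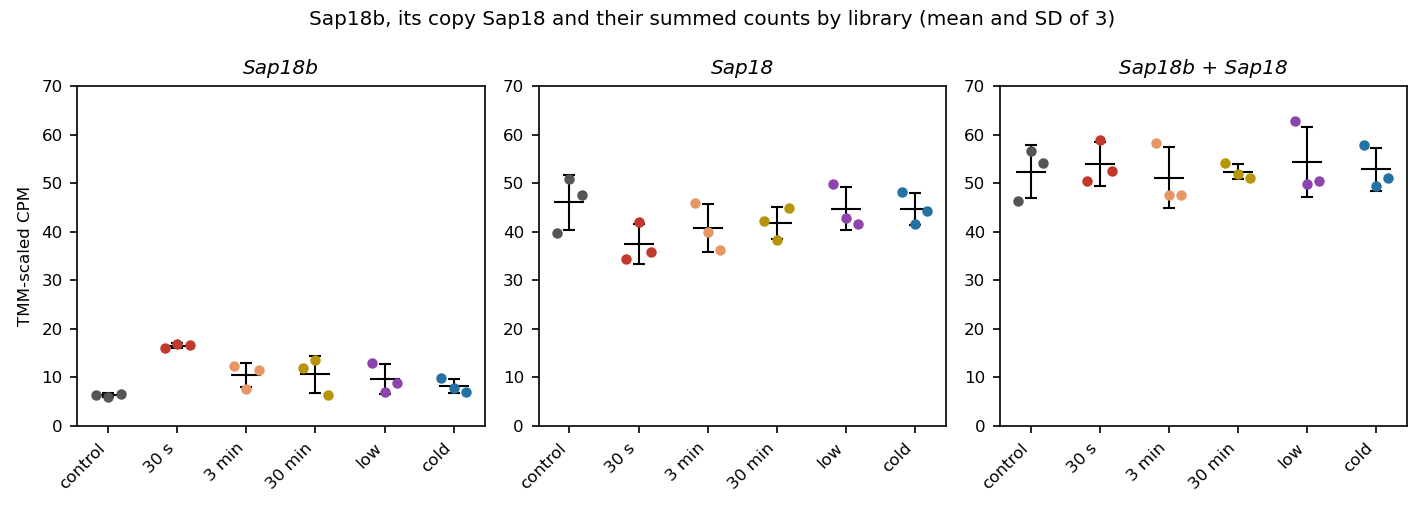
TMM-scaled CPM (vertical axes, 0 to 70) of Sap18b, of Sap18 and of their summed counts by group. Points are libraries, and bars give the mean and SD of 3. Sap18b is highest at 30 s while the sum stays between group means of 51.1 and 54.3 CPM.

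Hoxc8 went against the description of the 8 genes as raised in the mild groups, because its control libraries were the ones that stood apart. Hoxc8 (ENSMUSG00000001657, chr15:102990607-102994111, plus strand) had 3.21, 2.44 and 4.24 CPM in control, from 5 to 9 counts, and every other library had 5.36 or more. The values were 7.39, 13.3 and 11.8 CPM at 30 s, 10.6, 13.1 and 5.36 at 3 min, and 10.1, 8.39 and 7.56 at 30 min. They were 8.47, 7.04 and 7.01 in low trypsin and 7.47, 7.41 and 8.04 in the cold. All 5 treated groups overlapped at least one other treated group. Of the tested genes, 52 (0.516%) had all 3 control libraries below the other 15. The log2 difference from control was 1.67 ± 0.38 at 30 s, 1.56 ± 0.39 at 3 min, 1.37 ± 0.41 at 30 min, 1.16 ± 0.40 in low trypsin and 1.18 ± 0.40 with the cold-active protease. These differences share the same 3 control libraries. The span of Hoxc8 lies within that of Hoxc5 on the same strand, with 0 exonic nt shared.

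Mpst (ENSMUSG00000071711, chr15:78406416-78414013, plus strand) showed none of these separations. Control libraries had 8.34, 3.91 and 6.60 CPM, 30 s libraries 15.2, 16.4 and 9.64, and low trypsin libraries 8.97, 10.8 and 12.6. The others had 12.4, 10.9 and 13.4 at 3 min, 10.1, 10.5 and 9.46 at 30 min, and 6.07, 10.3 and 8.61 in the cold. All trypsin libraries were above all control libraries. In the single comparisons of a trypsin group with control, 8.27% to 10.9% of tested genes had every library above control. The share with all trypsin groups above control together was not counted. Since control was part of the choice, nothing is read from the Mpst pattern. The cold group overlapped control, and the third 30 s library was within the range of the 30 min libraries and below all 3 min libraries. Above control by 1.17 ± 0.31 at 30 s, Mpst was 0.98 ± 0.33 higher at 3 min, 0.70 ± 0.34 at 30 min, 0.81 ± 0.32 in low trypsin and 0.45 ± 0.34 in the cold.

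Among all tested genes ordered by log2 difference from control, the 8 held places 32 (Hoxc8) to 72 (Mpst) at 30 s. Directly above and below them stood Rps10-ps4 at 1.67 and Gm15501 at 1.16, so the 8 are a selection from a longer run of genes with differences of that size. In low trypsin they were spread from place 40 (Usp50) to 680 (Cbx3), with Gm14633 at 1.84 just above and Fat1 at 0.46 just below. Every 30 s and every low trypsin library lay above every control library for all 8 genes, a separation found upward in 10.9% of tested genes at 30 s and 9.89% in low trypsin. As the rule used both contrasts, nothing is read from these counts.

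**Figure D3:**
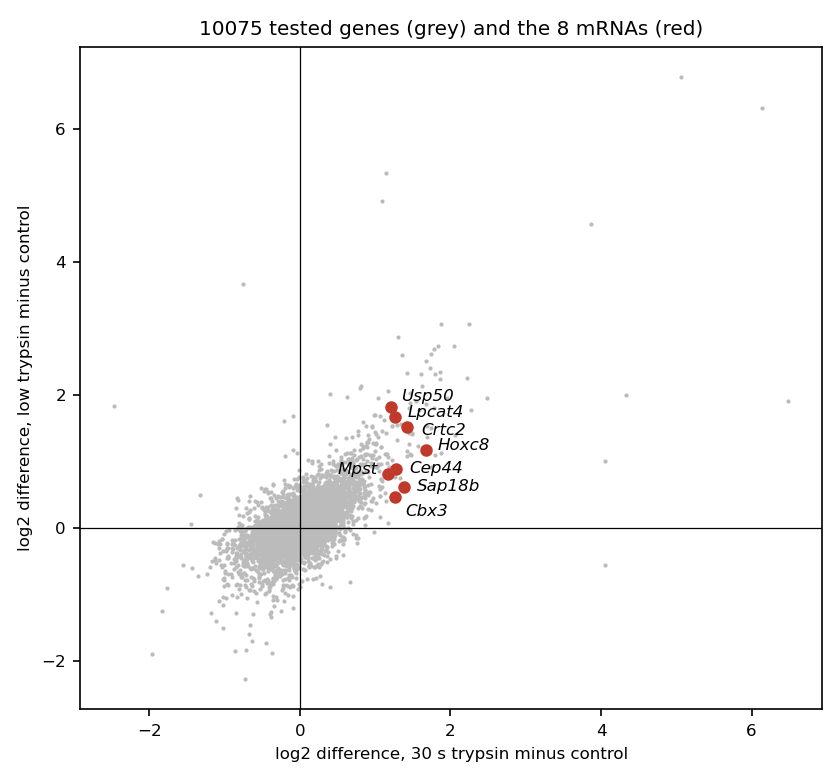
Log2 difference from control at 30 s (horizontal) and in low trypsin (vertical) of the 10075 tested genes in grey and the 8 mRNAs in red. At 30 s the 8 lie between 1.17 and 1.67, while in low trypsin they range from 0.46 for Cbx3 to 1.81 for Usp50, and they are not the outermost genes on either axis.

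The 3 min, 30 min and cold-active protease groups share the control libraries with the contrasts that chose the genes, so their differences from control are also given without a test. At 3 min, 6 of the 8 had every library above every control library (8.27% of tested genes), at 30 min 3 (9.29%) and in the cold 2, Hoxc8 and Sap18b (6.83%). The median log2 difference of the 8 was 1.27 at 30 s, 1.02 in low trypsin, 0.69 at 3 min, 0.42 at 30 min and 0.02 in the cold. Over all tested genes the medians lay within 0.01 of 0. With the filter applied to the compared groups alone, Usp50, Hoxc8 and Lpcat4 would not have passed at 3 min, Usp50 and Lpcat4 at 30 min, and Lpcat4 in the cold, so these medians include genes admitted through other groups. The range in the cold was wide, from -0.75 for Lpcat4 to 1.18 for Hoxc8.

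**Figure D4:**
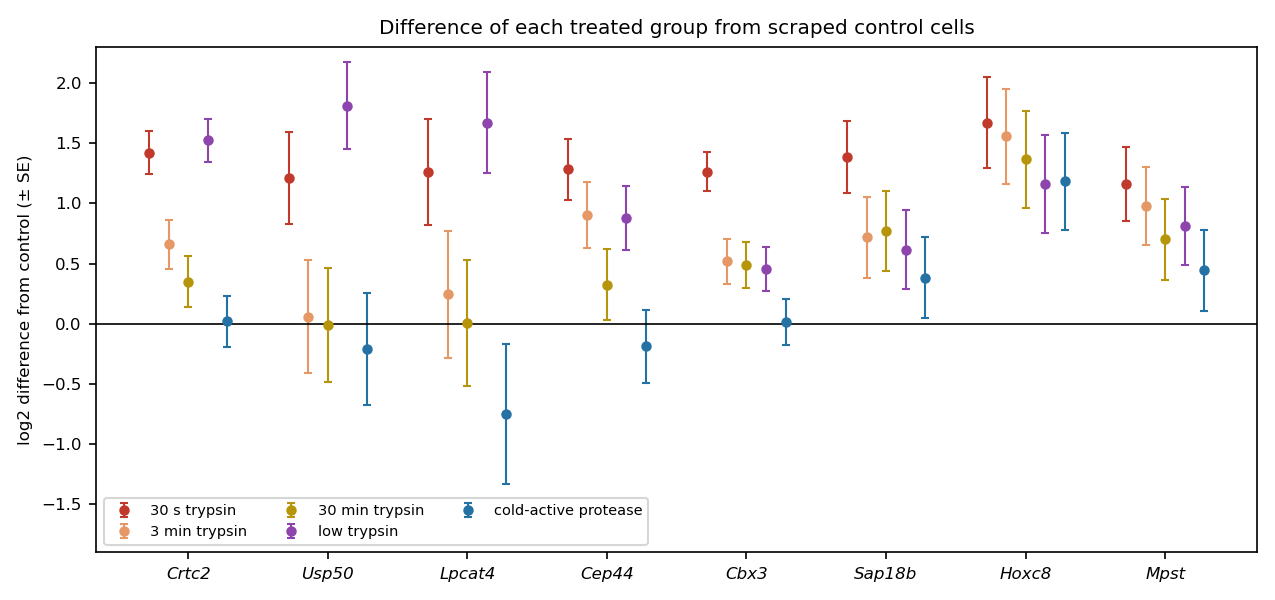
Log2 difference from control (vertical axis) of each of the 8 mRNAs in the 5 treated groups, as fitted value with its SE, from 3 libraries a group. Values at 30 s lie between 1.17 and 1.67 for all 8. Those with the cold-active protease lie near 0 for Crtc2 and Cbx3 (both 0.02) and at 1.18 for Hoxc8.

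Comparisons among the 3 min, 30 min and cold-active protease groups used means from none of the libraries that chose the genes, and here the genes were tested. The filter and the estimate of spread did use all 18 libraries. Filtered on the compared groups alone, Usp50 and Lpcat4 would not have passed in any of the 3 comparisons, so these 2 were tested only through the groups in which they are high. Genes with an adjusted p under 0.05 in edgeR's quasi-likelihood test, adjusted over all 10075 tested genes, were called. Cep44 was the gene that passed. It was 1.09 ± 0.28 lower on the log2 scale with the cold-active protease than after 3 min of trypsin (a difference of -1.09, 95% interval -1.65 to -0.54, edgeR adjusted p = 0.00936), at 9.18 ± 4.4 against 19.5 ± 2.9 CPM and lower in 3 of 3 libraries. Called genes made up 3.7% of all tested genes in this comparison, and called lower 0.864%. The call ended without the third 3 min library, at -0.97 and an adjusted p of 0.0799, and without the first cold library, at -0.74 and 0.180. Fbxo8, whose start lies 42 nt from that of Cep44 on the other strand, had 27.9 CPM in the cold and 24.9 at 3 min (0.17 ± 0.19, edgeR adjusted p = 0.822).

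The other 7 genes were not called between the cold-active protease and 3 min of trypsin. Crtc2 came nearest, at -0.64 ± 0.20 (95% interval -1.04 to -0.24, edgeR adjusted p = 0.0596), and it passed without the third cold library, at -0.82 and an adjusted p of 0.0183. Cbx3 was at -0.50 ± 0.18 (interval -0.87 to -0.14, edgeR adjusted p = 0.154). With Cep44, these made 3 of the 8 with an unadjusted p under 0.05, as had 1187 of the 10075 tested genes. Crtc2, Cep44, Cbx3 and Mpst had all 3 cold libraries below all 3 min libraries, a separation that 8.07% of tested genes had in this direction. Lpcat4 was at -0.999 ± 0.58 with an interval from -2.15 to 0.16, so that neither a large decrease nor a small increase was resolved at its counts.

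Between 30 min and 3 min of trypsin edgeR called 0 of the 8, DESeq2 called 0, and 1, Cep44, had an unadjusted p under 0.05. Over all 10075 tested genes 4.03% were called, and 1363 had an unadjusted p under 0.05. Cep44 was at -0.58 ± 0.27 (95% interval -1.12 to -0.04, edgeR adjusted p = 0.313) and Crtc2 at -0.31 ± 0.20 (interval -0.71 to 0.09, edgeR adjusted p = 0.530). Crtc2, Cep44 and Mpst had all 30 min libraries below all 3 min libraries, as did 8.27% of tested genes. The intervals of Usp50, from -1.03 to 0.89, and Lpcat4, from -1.32 to 0.84, were wide at these low counts.

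Between the cold-active protease and 30 min of trypsin edgeR and DESeq2 each called 0 of the 8, against 1.85% of all tested genes. An unadjusted p under 0.05 was found for 1 of the 8, Cbx3, and for 1168 of the 10075 tested genes. Cbx3 was at -0.47 ± 0.18 (95% interval -0.84 to -0.10, edgeR adjusted p = 0.245), with all 3 cold libraries below all 30 min libraries (7.41% of tested genes). An F test across the 3 groups called Cep44 (edgeR adjusted p = 0.0237), a call that ended in a fit to those groups alone, and none of the other 7, whose adjusted p-values began at 0.122 for Crtc2. It called 5.38% of all tested genes.

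The genes next to the 8 were examined for differences of their own where they were tested. Those near Sap18b did not pass the filter, and Nutm1, near Lpcat4, had no deposited counts. Slc39a1 and Dennd4b beside Crtc2, Usp8, Hoxc5 and Hoxc6, Fbxo8 and Tst, the sulfurtransferase beside Mpst, were not called against control in any group. Hnrnpa2b1, which encodes an RNA-binding protein and starts 465 nt from Cbx3 on the opposite strand, rose from 686 ± 32 to 813 ± 19 CPM at 30 s, a log2 change of 0.24 ± 0.05 (edgeR adjusted p = 0.000662). It rose by 0.22 ± 0.05 in low trypsin (edgeR adjusted p = 0.00437), a call that ended without the third control library (0.0512). The difference of Cbx3 at 30 s was 1.27.

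Related genes were counted on 8 lists, 1 for each gene, which held 183 tested genes in all. Against control edgeR called 9 of these at 30 s (6.94% of all tested genes were called), 5 at 3 min (3.96%), 3 at 30 min (4.68%), 6 in low trypsin (5.19%) and 0 in the cold (0.665%). In the cold 11 of the 183 had an unadjusted p under 0.05, against 885 of the 10075 tested genes, and DESeq2 called 0 of the 183. Of these 23 calls, 8 held in all 24 alternative analyses and 15 were lost in at least one. The list medians lay within 0.16 of 0 on the log2 scale, except 0.29 for the CREB list at 30 min.

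Around Crtc2, 18 CREB coactivators and targets were tested. Egr1, an immediate early transcription factor, rose from 80.4 to 119 CPM at 30 min (0.56 ± 0.11, edgeR adjusted p = 0.00082) and to 128 CPM in low trypsin (0.66 ± 0.11, edgeR adjusted p = 2.53e-05). Dusp1, which dephosphorylates MAP kinases, rose from 13.8 to 55.1 CPM at 30 min (1.96 ± 0.22, edgeR adjusted p = 1.22e-09), the group in which Crtc2 itself overlapped control. At 30 s Egr1 and Nr4a2 rose by 0.36 and 0.52, calls that were lost in 7 and 3 of the 24 alternatives. Of 32 other Usp genes, Usp19 rose in low trypsin from 43.2 to 65.9 CPM (0.62 ± 0.14, edgeR adjusted p = 0.0019), and Usp8, the neighbour of Usp50, was not called.

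None of 17 other Hox genes and Hox cofactors was called in any group by edgeR or DESeq2. At an unadjusted p under 0.05 there was 1 at 30 s, 1 at 3 min, 1 in low trypsin and 0 in the other groups. Of the 10075 tested genes, 1600 met that threshold at 30 s, 1289 at 3 min and 1567 in low trypsin. At 30 min 1648 met it, and in the cold 885. Among 33 centriole and centrosome genes, Cntrob rose at 30 min (0.63 ± 0.18) and in low trypsin (0.60 ± 0.17), and these calls were lost in 3 and 4 alternatives. Of 22 genes of HP1 and histone H3 lysine 9 methylation, Trim28, a corepressor that recruits this machinery, fell by 0.26 ± 0.06 in low trypsin (edgeR adjusted p = 0.00116). The HP1 paralogue Cbx1 rose by 0.25 ± 0.08 at 30 s and Mphosph8 fell by 0.54 ± 0.18 there, and Setdb2 rose by 1.31 ± 0.40 at 3 min and 1.34 ± 0.38 in low trypsin. Each of these 4 calls was lost in 7 to 15 alternatives, Setdb2 being at 3.30 CPM in control.

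Among 17 sulfide and cysteine genes around Mpst, Txn1, the cytosolic thioredoxin, fell by 0.38 ± 0.05 at 30 s (edgeR adjusted p = 5.59e-09) and by 0.48 ± 0.05 at 3 min (edgeR adjusted p = 5.62e-12), the opposite sign to Mpst. Around Sap18b, 27 genes of the spliced mRNA and Sin3 deacetylase complexes were tested. Magoh, a core exon junction protein, fell from 163 to 115 CPM at 30 s (-0.50 ± 0.09, edgeR adjusted p = 6.42e-05), and Rbm8a, its partner, fell by 0.28 ± 0.08 (lost in 2 alternatives). Sin3a fell by 0.65 ± 0.21 at 30 s, Magoh fell by 0.36 ± 0.09 and Acin1 and Pnn rose by 0.47 ± 0.12 and 0.38 ± 0.12 at 3 min, and Ing1 fell by 0.41 ± 0.12 in low trypsin. Each of these 5 calls was lost in at least one alternative, Pnn in 15 of 24. Of 17 lysophospholipid acyltransferase genes, Agpat1 rose by 0.48 ± 0.14 at 30 s, lost in 6 alternatives, and Lpcat1 and Lpcat3 were not called.

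Annotated features were not used in the choice. All 8 principal transcripts were shorter than the median of tested genes, 3026 nt, ranging from 789 nt for Sap18b to 2747 nt for Crtc2. In base composition they were mixed, from 41.1% GC for Cbx3 to 60.8% for Lpcat4, with a median of 50.1% over tested genes. Exon number ran from 1 in Sap18b to 14 in Crtc2 and Lpcat4. A retained-intron isoform was annotated for 5 of the 8, and for 60.8% of tested genes.

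Within the 8, the measured profiles over the 6 groups lay at different distances from their own median. Taking the median centred log2 profile as reference, Cbx3 lay closest (root mean square difference 0.13), then Cep44 (0.17), Sap18b (0.18) and Mpst (0.21). Crtc2 (0.27), Hoxc8 (0.36), Lpcat4 (0.45) and Usp50 (0.48) lay farther away. Lpcat4 and Usp50 also had the largest SD between replicates of the 8, 0.59 and 0.57 on the log2 scale. Whether the distances exceed that spread was not tested. Among 8921 other tested genes with at least 10 CPM in their highest group, those nearest to the median profile were Raly (0.12), Gm9774 (0.15), Akap10 (0.16), mt-Ts1 (0.16) and Pcgf2 (0.16). Raly, an RNA-binding protein gene, had 21.8 ± 1.6 CPM in control, 45.9 ± 1.7 at 30 s and 36.4 ± 8.0 at 3 min. It had 31.2 ± 2.3 CPM at 30 min, 36.3 ± 5.6 in low trypsin and 24.1 ± 1.8 in the cold. Akap10, which encodes an anchoring protein for protein kinase A, had 8.70 ± 0.32 CPM in control, 19.4 ± 3.5 at 30 s, 18.9 ± 1.6 in low trypsin and 8.97 ± 3.2 in the cold. The likeness is over 6 group means that share the same 18 libraries.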

How the data were processed

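BRB-seq libraries of 18 C2C12 samples were analysed from the whole-number counts per gene that the authors deposited. Per the submitters' processing notes, reads were handled with featureCounts 2.0.1, HISAT2 2.1.0, Trim Galore 0.6.6, cutadapt 2.6 and UMI-tools 1.0.1, and DESeq2 1.28.1 was also named, on GRCm38. Settings, strand and the handling of multi-mapping reads are not given in the sources used here. Further deposited tables of scaled values were not used.

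Genes were filtered with filterByExpr by group, which kept 10075 genes holding 99.4% to 99.5% of each library's counts. All 18 libraries entered a single edgeR 4.0.16 fit under R 4.3.3, with TMM scaling and a quasi-likelihood F test and without covariates. P-values were Benjamini-Hochberg adjusted over all tested genes. The procedure was tested on simulated data. All 18 replicate pairs differed beyond sampling noise (chi-square per degree of freedom 1.43 to 2.72). Intervals come from this fit and include the spread between libraries. Floors cover counting error only.

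The 8 genes and the related lists were chosen with earlier results of these data known. Beside the 8, named genes were neighbours within 5 kb, copies with at least 95% identity over at least 100 nt, the genes ranked directly above and below, up to 3 called genes per list by the F test over 6 groups, and the 5 nearest profiles. Cbx1, Sin3a, Pnn and Ing1 lie outside that rule and were named after their values were seen, to account for every call. Promoters came from RefSeq, annotation from GENCODE M21, and coordinates are 1-based. Alternatives were DESeq2 size factors, upper-quartile scaling, no filter, a replicate block, only the groups compared, DESeq2 1.42.0, copies summed and each library left out.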

Additional observations from a re-analysis of the deposited data

How the results depend on the processing

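Under DESeq2 size factors, upper-quartile scaling, no filter and DESeq2, no count of called genes among the 8 and no median moved across its limit. Same-lot residuals correlated at -0.06 to 0.07 over 45 pairs, with a mean of 0.0019 against -0.0009 between other lots. Of 18 libraries, 9 correlated best with their own lot. This check cannot exclude a weak pairing by lot. With the replicate block, 1 of the 8 was called between cold and 3 min (Cep44, -1.10), as without it, and 365 against 373 genes were called over all. Fitting only the groups compared raised the median at 30 min against control from 0.42 to 0.60, because 6 of the 8 then passed the filter (Usp50 and Lpcat4 did not), and left 0 called by the F test over 3 groups. With 1 library left out, 0 to 2 of the 8 were called between cold and 3 min: 0 without the third 3 min or the first cold library and 2 without the third cold library. The F test gave 0 to 2 as well: 0 without the first 3 min, the third 3 min or the first cold library, and 2 without the third cold library.

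Among the tested comparisons, differences that were not called changed sign as follows. With copies summed, Sap18b was at 0.044 between cold and 3 min and at 0.013 between cold and 30 min. Leaving out 1 library, the difference between 30 min and 3 min ranged from -0.38 to 0.28 for Usp50, -0.45 to 0.10 for Hoxc8, -0.13 to 0.091 for Cbx3, -0.18 to 0.31 for Sap18b and -1.11 to 0.48 for Lpcat4. Between cold and 3 min Usp50 ranged from -0.58 to 0.077. Between cold and 30 min it ranged from -0.44 to 0.087 and Lpcat4 from -1.12 to 0.12. Differences from control, given without a test, also changed sign with 1 library left out. At 3 min these were Usp50 (-0.39 to 0.40) and Lpcat4 (-0.48 to 0.60), and at 30 min Usp50 (-0.46 to 0.33) and Lpcat4 (-0.87 to 0.37). In the cold they were Crtc2 (-0.16 to 0.16), Usp50 (-0.66 to 0.13), Cep44 (-0.43 to 0.16) and Cbx3 (-0.12 to 0.16). With copies summed, Sap18b was at -0.044 at 3 min and -0.012 at 30 min, and Cbx3 at -0.048 in the cold. Over all tested genes, calls at 30 min against control fell from 472 to 304 without the second control library, calls in the cold against control ranged from 35 to 71 (67 with all libraries), and calls between cold and 30 min fell from 186 to 118 without the second 30 min library. Low counts limit Usp50 and Lpcat4 most, with 3 counts or fewer in several libraries.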
